A study of Homo sapiens with 6 samples.

Results

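The data described here are the ChIP-seq peaks found near 6 genes of the AP-1 family, JUN, JUNB, FOS, FOSL1, FOSL2 and ATF3, in the human cell line CCLP1. A peak was taken when it lay within 100 kb of the gene's span in hg19, or within 500 kb for JUN. These windows held 33 of the 22804 peaks in the 3 deposited peak lists. CCLP1 is an established line from a cholangiocarcinoma, a tumour of the bile duct. One list came from an antibody against endogenous YAP, one from an antibody labelled TEAD, and one from Flag-Bio-YAP5SA, called YAP5SA here, a tagged YAP mutant in which alanines stand in for the serines that LATS kinases phosphorylate. The series also names IgG, input and BirA control libraries, 6 libraries in all with 1 per group; the controls were not analysed here, and the values have no control level beside them. The design text gives TEAD1 as the TEAD target and mentions several YAP runs; which of them the YAP list comes from is not stated. The labels do not state how the tagged protein was expressed or at what level. With 1 library behind each list, replicate error cannot be given and no test between conditions was possible. Read depth is unknown for all 3 lists.

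AP-1 is a dimer of leucine zipper proteins. JUN and JUNB can pair with themselves or with the FOS group (FOS, FOSL1, which encodes FRA1, and FOSL2, which encodes FRA2), whereas the FOS group needs a JUN partner, and ATF3 belongs to the related ATF group and pairs with JUN proteins too. Many of these genes respond within minutes to growth factors or stress, and FOSL1 is often high in tumours of epithelial origin. YAP is a co-activator restrained by the Hippo kinases; it does not bind DNA itself and reaches it mainly through TEAD factors, often at enhancers far from promoters that also carry AP-1 sites. The comparison made here asks how far TEAD, YAP and YAP5SA were found around the genes that encode AP-1 itself.

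The promoters of these genes are given first, because AP-1 and ATF proteins are known to act at the promoters of JUN and ATF3, and because of the 33 peaks described next only 3 lay inside the span of an AP-1 gene. The distances of peaks are to these gene spans; promoters of other genes in the windows were not analysed here. RefSeq promoter sequences (GRCh38.p14) were matched for 5 of the 6 genes, all but FOSL1, and the 250 bases before each start were searched on both strands. The 2 sequences shown are those of JUN (chr1:58784048-58784297, minus strand) and of the first of 2 listed ATF3 starts (chr1:212565157-212565406, plus strand). Which ATF3 start is used in CCLP1 is not known here, and what is known of the ATF3 promoter may concern another start. Capitals mark TGACATCA, a site known to take JUN with ATF2, and GGGCGG or its complement CCGCCC, the Sp1 motif; the marked motifs do not overlap each other.

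JUN: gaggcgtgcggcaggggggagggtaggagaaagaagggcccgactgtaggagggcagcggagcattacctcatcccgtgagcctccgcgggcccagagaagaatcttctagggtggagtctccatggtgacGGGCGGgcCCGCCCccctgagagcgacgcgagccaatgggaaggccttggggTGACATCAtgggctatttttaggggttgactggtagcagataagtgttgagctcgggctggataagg

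ATF3: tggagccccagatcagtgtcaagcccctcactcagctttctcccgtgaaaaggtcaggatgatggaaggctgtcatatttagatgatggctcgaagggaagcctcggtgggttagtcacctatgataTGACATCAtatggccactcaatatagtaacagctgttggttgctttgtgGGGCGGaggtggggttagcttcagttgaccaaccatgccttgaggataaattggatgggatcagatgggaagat

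The TGACATCA match lay at bases -67 to -60 from the JUN start and -123 to -116 from the ATF3 start. These letters were added to the search after the sequences had been read; 2.37% of all 35116 promoter windows of this length held them. The TEAD hexamer GGAATG (11.9% of all windows), the AP-1 motif TGANTCA (6.57%) and the full CRE TGACGTCA (1.65%) had 0 matches in the windows of the 5 genes, and GGGCGG (42.6%) was matched in JUN, FOS, FOSL2 and the first ATF3 window. A missing match says only that these letters were not in the window.

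TEAD peaks were dense around the AP-1 genes as a set, and YAP and YAP5SA peaks were not. The windows, 2.097 Mb in all, held 26 of the 9321 TEAD peaks, 3 of the 3867 YAP peaks and 4 of the 9616 YAP5SA peaks. TEAD density was 12.4 peaks per Mb (exact Poisson 95% interval 8.10 to 18.2), against 3.07 per Mb over all chromosomes, a ratio of 4.04. For YAP the density was 1.43 per Mb (0.295 to 4.18) against 1.27 over all chromosomes. For YAP5SA it was 1.91 per Mb (0.520 to 4.88) against 3.19. Both intervals took in the value over all chromosomes. Leaving out the 200 kb tiles of the genome without a peak of any list raises each density by construction. Over the tiles that were left, densities were 4.73 per Mb for TEAD, 1.95 for YAP and 4.91 for YAP5SA. The TEAD interval lay above 4.73, the YAP interval took in 1.95, and the YAP5SA interval ended just below 4.91. JUN supplied 16 of the 26 TEAD peaks. Around the other 5 genes the TEAD density was 9.15 per Mb (4.39 to 16.8, 10 peaks). That interval lies above 3.07 but takes in 4.73, so apart from JUN a raised density depended on the background used. These intervals cover counting error only and are too narrow where peaks lie side by side. The genes and windows were picked with earlier results of these lists known, so the ratio describes these loci and is not a test.

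JUN, the main transactivating partner of AP-1 dimers, had 16 TEAD peaks, 3 YAP peaks and 1 YAP5SA peak within 500 kb. Of all 1 Mb tiles of the genome, 2.88% held at least 16 TEAD peaks (2.45% without repeat-like regions), 12.8% at least 3 YAP peaks and 89.9% at least 1 YAP5SA peak. The TEAD count was therefore high for a stretch of this length, whereas the YAP5SA count was ordinary. The peak of any list nearest to the gene was 24.5 kb away. JUN is transcribed towards lower coordinates, and 12 of the 16 TEAD peaks were upstream of it, 28.0 to 402 kb away, against 4 downstream. The RefSeq table (GRCh38.p14) lists 0 other protein-coding genes within 500 kb of JUN on the upstream side.

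The TEAD peaks nearest to JUN were modest. The nearest downstream peak, chr1:59221311-59221452, had a score of 53.73 and lay 24.5 kb from the gene. The score is the authors' value for each peak, from 50 at the lowest to 3100 in each list, and was used only to rank peaks within a list. Upstream, a pair at chr1:59278039-59278365 and chr1:59281446-59281703, 28.0 and 31.4 kb away, scored 134.56 and 85.23, higher than 75.4% and 57.3% of all TEAD peaks. Another downstream pair, at chr1:59176880-59177002 and chr1:59179495-59179778, scored 51.97 and 124.93. Thus each side of the gene had a pair of peaks within 70 kb of which at least 1 member was in the upper part of the list. In all, 11 of the 16 TEAD peaks at JUN lay within 12.5 kb of another, in 5 groups of 2 or 3. The share of all TEAD peaks with a neighbour this near was not computed. The median gap to the nearest TEAD peak over the list was 20.0 kb, so most had no neighbour this near. Groups of 3 or more, however, took in 29.5% of the list and 23.1% of the TEAD peaks at the 6 loci. The spacing at JUN was not tested against that of the list.

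The strongest site was far upstream. The TEAD peak chr1:59608388-59609306, 919 bp wide and 358 kb from JUN, had a score of 2978.17 and ranked 10 of 9321. A second TEAD peak, chr1:59609396-59609777 (score 207.8), began 89 bp beyond its end. The next, chr1:59616821-59617186 (score 232.72), followed 7.04 kb later. Together with 4 weaker peaks they made up 7 TEAD peaks between 309 and 402 kb upstream. Apart from the strongest, the peaks of this stretch scored 65.36 to 232.72, so 1 site stood far above its neighbours.

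YAP and YAP5SA were each found once in this stretch, and at different TEAD peaks. The YAP peak chr1:59608792-59609122 lay wholly inside the strongest TEAD peak, with the centres 110 bp apart. Its score was 55.05, and 33.9% of YAP peaks scored lower. The YAP5SA peak chr1:59616883-59617043 lay wholly inside the TEAD peak that scored 232.72, with the centres 40.5 bp apart. Its score was 77.03, above 89.8% of YAP5SA peaks. The YAP peak was 7.76 kb from the YAP5SA peak, and 7.58 kb separated the strongest TEAD peak from it. At the 9 other TEAD peaks that scored at least as high as the strongest JUN peak, YAP and YAP5SA were both present each time. Most of these 9 were tied at the highest score of the list, 3100. Over the whole TEAD list, 0.826% of peaks met both. The YAP scores at the 9 peaks ran from 51.84 to 856.19 with a median of 186.25. Of these, 7 were in the top 5% of the YAP list, and 2 scored lower than the YAP peak at JUN. The other 2 YAP peaks at JUN, chr1:58959094-58959459 (score 51.59) and chr1:59719414-59719795 (score 52.43), lay 97.8 and 66.9 kb from the nearest TEAD peak.

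**Figure D1:**
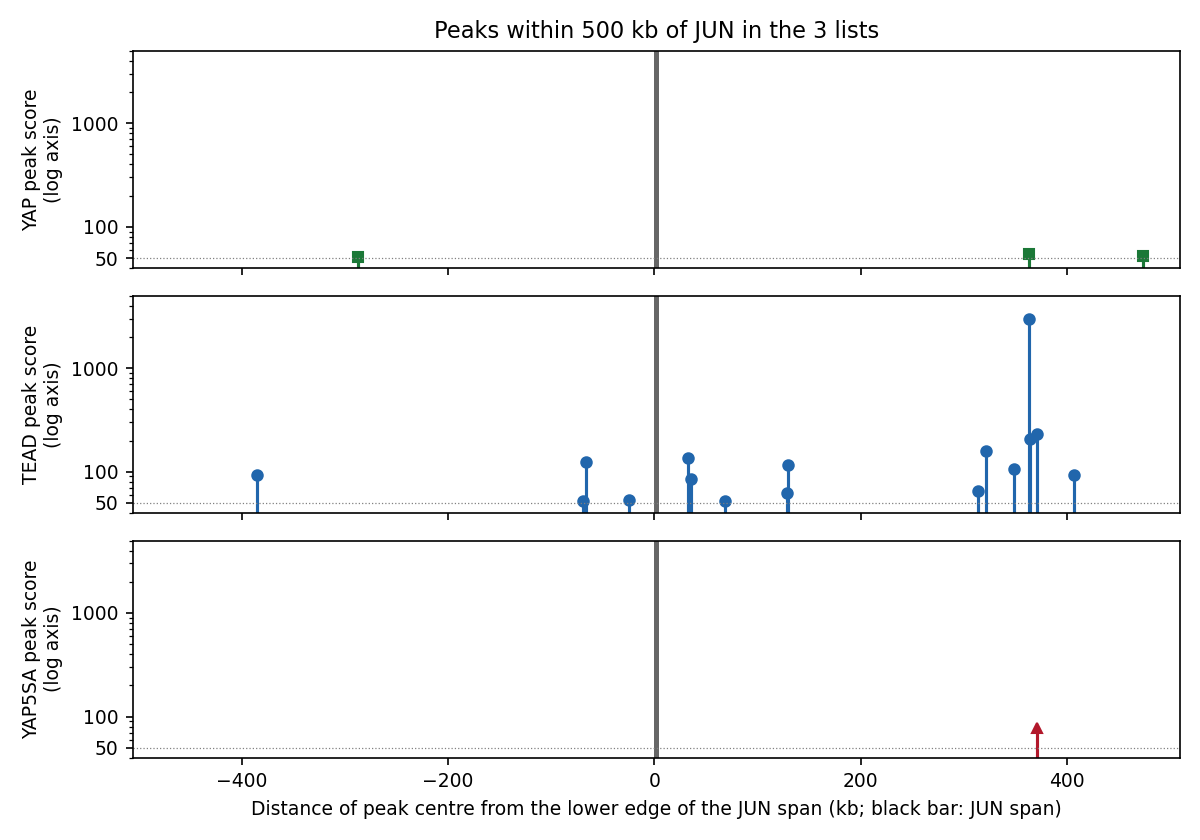
Score of each peak within 500 kb of JUN (log axis) against the distance of its centre from the lower edge of the JUN span in kb, for the YAP, TEAD and YAP5SA lists; upstream of JUN is to the right and the dotted line is the lowest listed score of 50. On this axis the TEAD panel has 7 peaks between 313 and 406 kb, one of them at 2978.17, where the other panels have 1 peak each.

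Around FOSL1, whose product FRA1 lacks a transactivation domain of the FOS kind, 4 TEAD peaks were found within 100 kb, no YAP peak and 1 YAP5SA peak. At least 4 TEAD peaks were held by 3.71% of all 200 kb tiles, at least 1 YAP peak by 20% and at least 1 YAP5SA peak by 44.4%. FOSL1 was 1 of the 2 loci with a peak inside the gene span. The TEAD peak chr11:65661679-65661978, 1.83 kb from the lower edge of the span, had a score of 214.47, above 85.5% of TEAD peaks. FOSL1 is transcribed towards lower coordinates, so this peak lay towards the 3′ end of the gene. The TEAD peak nearest to the 5′ end, chr11:65670670-65670940, was 2.67 kb outside the span and weak (score 51.87, above 4.89% of the list). Further upstream, 15.2 kb away, chr11:65683181-65683488 scored 151.54. The remaining TEAD peak, 32.4 kb away on the other side, scored 53.55. The YAP5SA peak, chr11:65759000-65759276 (score 60.4), was 91.0 kb from the gene and 75.5 kb from the nearest TEAD peak. The RefSeq table lists 14 other protein-coding genes within 100 kb of FOSL1, among them CFL1, DRAP1 and CCDC85B, so none of these peaks can be tied to FOSL1 from position alone.

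FOS, the prototype of the rapidly induced genes, had 3 TEAD peaks within 100 kb, and 0 YAP and 0 YAP5SA peaks. At least 3 TEAD peaks were held by 6.11% of all 200 kb tiles, at least 1 YAP peak by 20% and at least 1 YAP5SA peak by 44.4%. The highest, chr14:75761800-75762086 with a score of 126.33, was 12.8 kb downstream. The other 2 were 29.0 kb upstream (score 74.29) and 45.7 kb downstream (score 60.64), both below the middle of the list. No other protein-coding gene lies within 100 kb of FOS in the RefSeq table.

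ATF3, which represses or activates stress genes according to its partner, had 2 TEAD peaks and no peak of the other lists. Both lay inside the gene span, chr1:212753365-212753545 (score 70.77) and chr1:212769282-212769471 (score 101.08), 14.5 and 30.4 kb from the upstream edge. At least 2 TEAD peaks were held by 11.3% of all 200 kb tiles, at least 1 YAP peak by 20% and at least 1 YAP5SA peak by 44.4%. The ATF3 window is longer, at 255 kb. The gene table places BATF3, another leucine zipper gene, within 100 kb of ATF3. The nearest YAP peak to ATF3 was 1532 kb away.

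FOSL2 had 1 TEAD and 1 YAP5SA peak, side by side downstream of the gene. The TEAD peak chr2:28648517-28648679 (score 69.41) was 8.52 kb from the span, and the YAP5SA peak chr2:28651321-28651473 (score 58.91) was 11.3 kb from it, with 2.64 kb between them. Of all YAP5SA peaks, 10.3% lay within 10 kb of a TEAD peak, and the median distance was 177 kb. At least 1 TEAD peak was held by 28.6% of 200 kb tiles, so the counts at FOSL2 were common ones. JUNB, a JUN relative that can dampen JUN activity, was the emptiest locus. Its window held 0 TEAD and 0 YAP peaks, and 1 YAP5SA peak, chr19:12813116-12813382 (score 55.88), 88.6 kb upstream among 14 other protein-coding genes of the window. Only 28.6% of 200 kb tiles held a TEAD peak and 20% a YAP peak, so both zeros were the usual case.

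**Figure D2:**
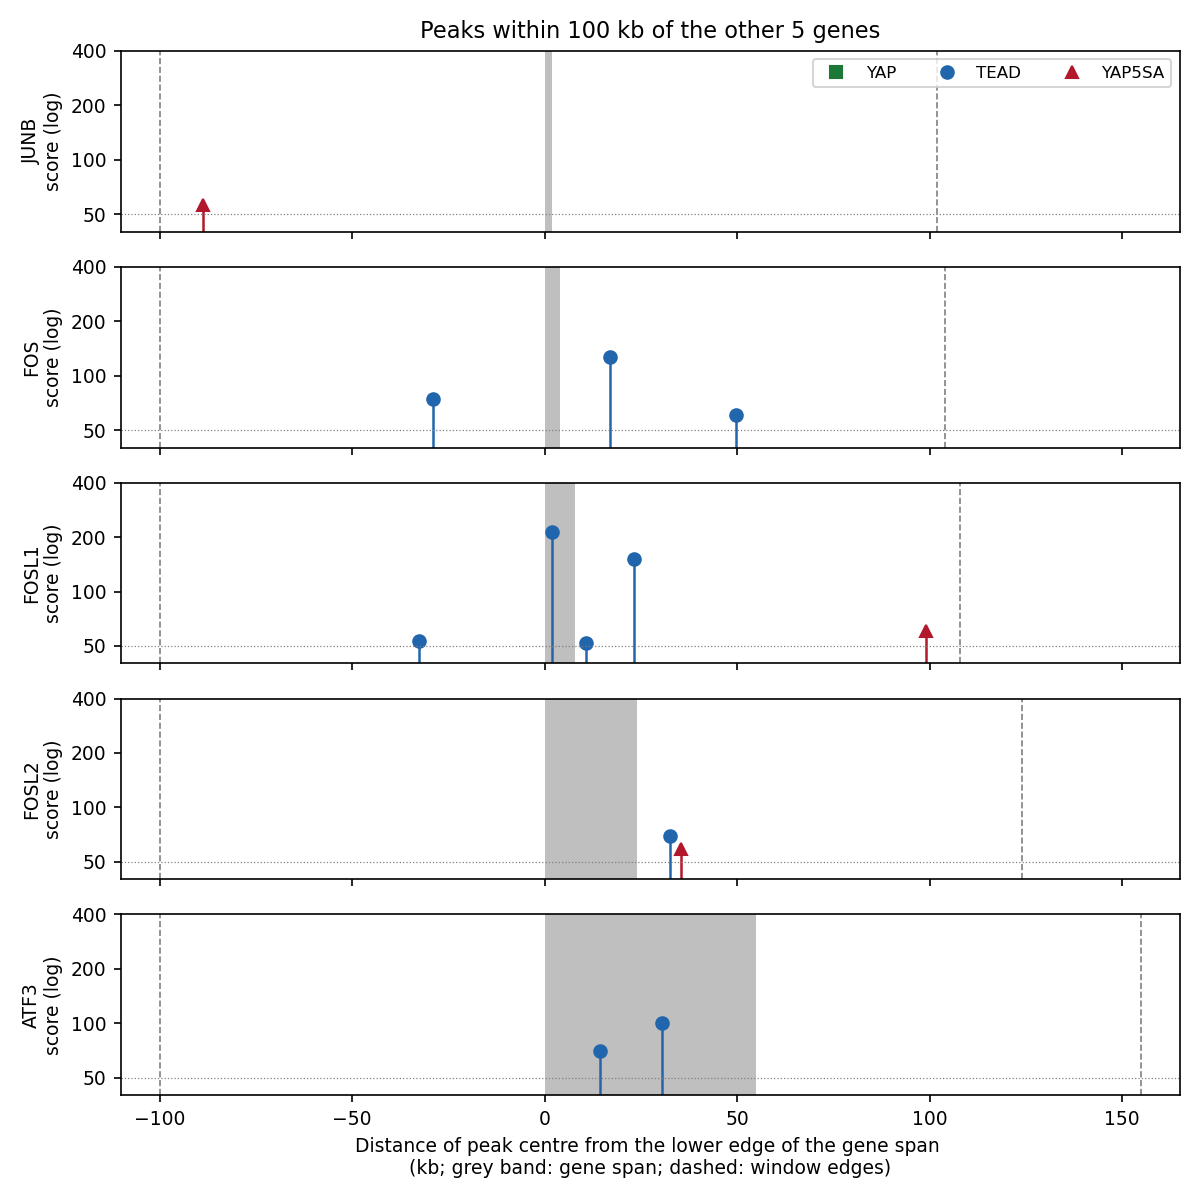
Score of each peak within 100 kb of JUNB, FOS, FOSL1, FOSL2 and ATF3 (log axis) against the distance of its centre from the lower edge of the gene span in kb; squares are YAP (none present), circles TEAD and triangles YAP5SA. The highest point is the TEAD peak inside the FOSL1 span at 214.47, and 2 of the 10 TEAD peaks are inside the ATF3 span.

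Across the 6 loci, as over the whole lists, peaks of different lists seldom met. Of the 26 TEAD peaks, 1 overlapped a YAP peak and 1 a YAP5SA peak, each 3.85% (exact Clopper-Pearson 95% interval 0.0973 to 19.6), beside 4.48% and 5.49% of the whole TEAD list. One of the 3 YAP peaks met a TEAD peak, beside 8.28% of the YAP list, and 1 of the 4 YAP5SA peaks did, beside 5.44% of the YAP5SA list. With so few peaks these intervals reach from 0.840% to 90.6% for YAP and from 0.631% to 80.6% for YAP5SA. No YAP peak met a YAP5SA peak (0 of 3, beside 2.64% of the YAP list), nor the reverse (0 of 4, beside 1.15%). The shares at these loci were thus not distinguishable from those of the whole lists. Regions with peaks of all 3 lists numbered 0 here; over the whole TEAD list 77 peaks (0.826%) met both a YAP and a YAP5SA peak, a share too small to be seen among 26. Of the 33 peaks, 29 met no peak of another list, which was also the usual case over each whole list. All 4 that did lay in the stretch 358 to 367 kb upstream of JUN.

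Within their lists, the TEAD peaks at these loci were a mixture of weak and strong sites. Their median score was 93.85, against 76.17 for all TEAD peaks, and 15 of 26 were at or above the list's middle. At JUN this held for 11 of 16, and at the other 5 loci for 4 of 10. In the top 25% of the list were 7, and in the top 10% was 1, the far upstream JUN site. Their median width was 264 bp, against 214 bp for the list. All 3 YAP peaks were in the lower part of the YAP list, with 7.89%, 14.3% and 33.9% of YAP peaks scoring lower. The YAP5SA peaks had 43.8% (JUNB), 56.4% (FOSL2), 63.8% (FOSL1) and 89.8% (JUN) of their list below them, and the JUN peak was the highest of the 4. Groups of 3 or more TEAD peaks with gaps of at most 12.5 kb took in 6 of the 26 (23.1%), 3 at JUN and 3 at FOSL1, beside 29.5% of all TEAD peaks. The median gap to the next TEAD peak was 10.5 kb here and 20.0 kb over the list.

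**Figure D3:**
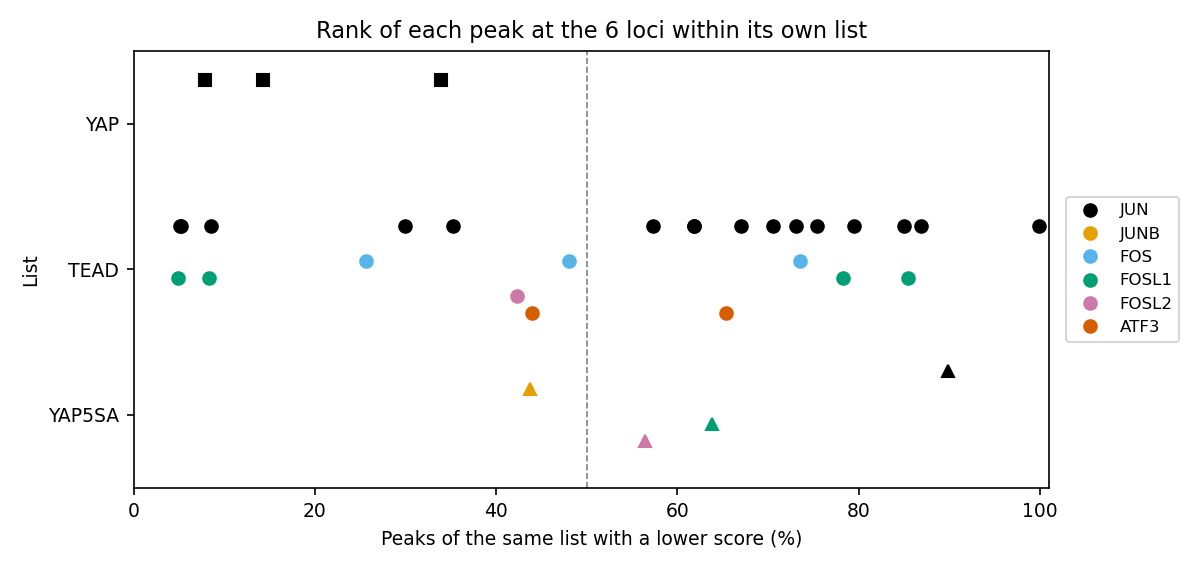
Percentage of peaks of the same list with a lower score, for each of the 33 peaks, by list (rows; squares YAP, circles TEAD, triangles YAP5SA) and gene (colours); the dashed line is the middle of each list. The 3 YAP peaks are at or below 33.9%, while TEAD peaks run from 4.89% to 99.9%.

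The window around JUN was wider than the others, so the loci were also compared at equal windows. At 100 kb on each side the TEAD counts were 6 for JUN (exact Poisson 95% interval 2.20 to 13.1), 4 for FOSL1 (1.09 to 10.2), 3 for FOS (0.619 to 8.77), 2 for ATF3 (0.242 to 7.22), 1 for FOSL2 (0.0253 to 5.57) and 0 for JUNB (up to 3.69). The intervals of neighbours in this order overlapped, and so did those of JUN and JUNB. Overlap of intervals does not show that 2 counts are alike, and the counts were not tested against each other. At least 6 TEAD peaks were held by 1.87% of 200 kb tiles. With this window there was no YAP peak at any of the 6 genes, and 20% of all 200 kb tiles held one. The pooled YAP interval, 0 to 2.84 per Mb, took in the 1.27 per Mb over all chromosomes, so no lack of YAP was shown. YAP5SA had 1 peak each at JUNB, FOSL1 and FOSL2. The pooled TEAD density was 12.3 per Mb (7.05 to 20.0), and it was 20.2 per Mb (8.70 to 39.7, 8 peaks) within 25 kb of the genes, where only JUNB had none.

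At 500 kb on each side, a window added after the data had been seen, FOSL1 had as many TEAD peaks as JUN. The counts were 17 for FOSL1 (9.90 to 27.2) and 16 for JUN (9.15 to 26.0), followed by 7 for FOS (2.81 to 14.4), 4 each for FOSL2 and ATF3 (1.09 to 10.2) and 3 for JUNB (0.619 to 8.77). Within 200 kb of the gene lay 5 of those at FOSL1 and 8 of those at JUN. Most of the FOSL1 peaks were remote, 381 to 466 kb away on the lower side and 424 to 428 kb on the higher side. The wide count therefore does not show that FOSL1 itself had as many TEAD peaks close by. At least 17 TEAD peaks were held by 2.72% of 1 Mb tiles, at least 7 by 12.2%, at least 4 by 26.2% and at least 3 by 36.6%. FOSL1 and JUN each had an interval that did not overlap that of JUNB, whereas FOS, FOSL2, ATF3 and JUNB overlapped one another. The median score was 82.58 at FOSL1 and 99.5 at JUN, and the highest at FOSL1 was 214.47, that of the peak inside the gene. Apart from the JUN site at 2978.17, whose neighbours reached 232.72, the TEAD scores of the 2 loci thus covered a like range. Of the 17 TEAD peaks at FOSL1, 0 met YAP or YAP5SA, beside 4.48% and 5.49% of the whole TEAD list, so this count is near that of the list. Outside the JUN window the wider search gave 1 further shared site, 179 kb upstream of JUNB, where the TEAD peak chr19:12722189-12722552 (score 127.21) met the YAP peak chr19:12722372-12722568 (score 50.68). The pooled TEAD density over the 6 wide windows was 8.36 per Mb (6.23 to 11.0), lower than at 100 kb.

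**Figure D4:**
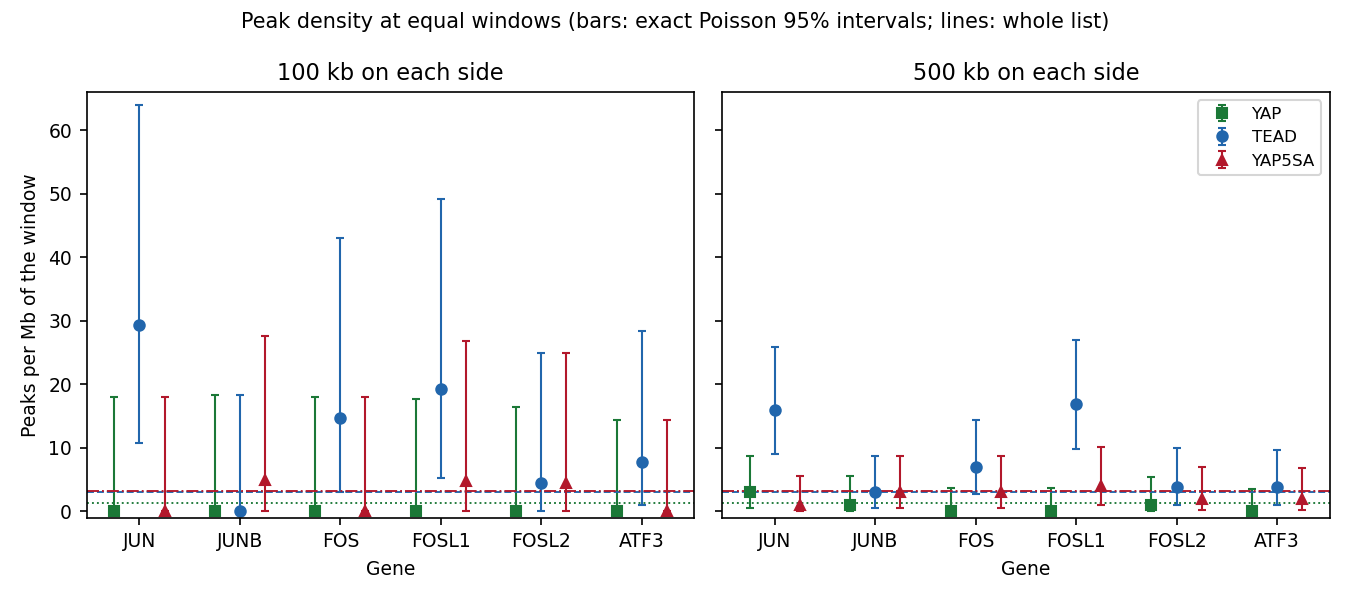
Peaks per Mb of the window at each gene, at 100 kb (left) and 500 kb (right) on each side, for YAP (squares, dotted line), TEAD (circles, dashed line) and YAP5SA (triangles, dash-dotted line); bars are exact Poisson 95% intervals and lines the density of each whole list. At 500 kb the TEAD intervals of JUN and FOSL1 are above the TEAD line at 3.07 per Mb, while YAP and YAP5SA intervals take in their own lines.

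**Figure D5:**
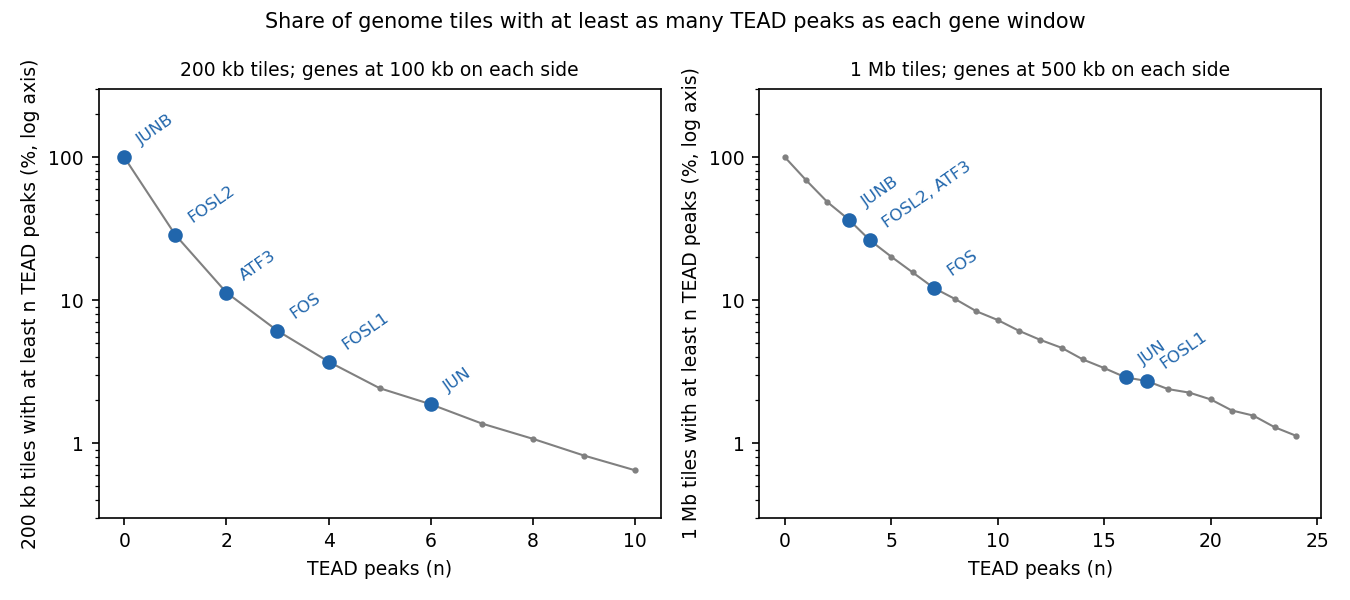
Percentage of genome tiles (log axis) that held at least n TEAD peaks, for 200 kb tiles (left) and 1 Mb tiles (right), with the 6 genes placed at their own counts at 100 and 500 kb on each side. JUN is at 6 peaks (1.87% of tiles) on the left, and JUN and FOSL1 are at 16 and 17 peaks (2.88% and 2.72%) on the right.

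The tiles cover each chromosome between the outermost peaks, gene-poor stretches included, and were not matched to gene neighbourhoods. The edge of the window mattered for some peaks. Just inside were the YAP5SA peaks at FOSL1 (91.0 kb, score 60.4) and JUNB (88.6 kb, score 55.88). Just outside were TEAD peaks 103 kb from ATF3 (score 60.4), 110 kb from JUNB (chr19:12791987-12792336, score 161.19) and 121 kb from FOS (score 101.92), and a YAP5SA peak 116 kb from FOSL1 (chr11:65543398-65543551, score 51.29), so JUNB had its nearest TEAD peak slightly beyond the limit. Beyond the JUN window the next TEAD peak was 886 kb away, at chr1:60135629-60136124, with a score of 920.94.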

How the data were processed

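Peak lists of 3 ChIP-seq libraries were used (YAP, TEAD, YAP5SA). The submitters' processing notes name Bowtie2 and the build hg19. The authors deposited 1 list per library, with positions, MACS peak names and a score that, from its range alone, was taken as a scaled p-value of the caller. No source used here gives the caller's version, threshold or control. Starts were read as counted from 0 and are printed from 1; 1 start below 0 was set to 0.

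Gene spans were taken in hg19, rounded to kb, so distances are good to about 1 kb. The loci, windows and settings were chosen with earlier results of these data known. Peaks overlapped when they shared at least 1 bp. Counts were set beside tiles of 200 kb and 1 Mb, with each peak placed by its centre. Without repeat-like regions means without contigs, peaks over 1 kb wide and peaks within 2 Mb of a peak-free stretch of over 2.5 Mb. All peaks that overlap another list, and the nearest and highest peak per locus and list, were to be named. Gene names and promoters came from RefSeq tables of GRCh38.p14, and no position was moved between builds; peak sequences were not analysed here. The code was tested on simulated lists, and its overlap counts equalled those of bedtools 2.31.1. Software was matplotlib 3.10.9, pandas 2.3.3, scipy 1.17.1 and numpy 2.4.6 under Python 3.11.15.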

Additional observations from a re-analysis of the deposited data

How the results depend on the processing

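Of 130 values recomputed for 16 results under 10 settings, 91 stayed within 1.5 times (counts) or within the counting interval, and 39 moved; the wider or narrower window, the shorter list or the stricter overlap sets each change by construction. The main values were 26 TEAD, 3 YAP and 4 YAP5SA peaks, with 1 TEAD peak at a YAP peak and 1 at a YAP5SA peak. With the higher-scoring 50% of each list there were 15 TEAD (7.15 per Mb) and 0 YAP peaks (0 per Mb), and 0 TEAD-YAP overlaps in either direction. With lists limited to the shortest, 14 TEAD (6.68 per Mb, median 74.5% of the full list below them) and 2 YAP5SA peaks were left. With windows of 50 kb, and 250 kb for JUN, there were 0 YAP peaks (0 per Mb), 1 YAP5SA peak and 0 overlaps of TEAD with YAP or YAP5SA in either direction. With 100 kb for all 6 there were 16 TEAD and 0 YAP peaks (0 per Mb), and again 0 overlaps. With 200 kb, and 500 kb for JUN, there were 5 YAP and 7 YAP5SA peaks, and 2 TEAD peaks met 2 YAP peaks. With 500 kb for all 6, added after seeing the data, there were 51 TEAD, 5 YAP and 15 YAP5SA peaks (YAP5SA median 38.3%), with 2 TEAD-YAP overlaps. A reciprocal overlap of 50% left 0 overlaps of TEAD with YAP and 0 with YAP5SA, in both directions, and peaks within 1 kb of each other gave 2 TEAD peaks at a YAP peak. Omitting repeat-like regions and matching centres within 250 bp moved no value beyond these limits. No paired analysis was possible because the groups have no replicates, and for that reason no library could be left out. Unknown depth limits how many weak YAP and YAP5SA peaks could be listed, so an empty window is not shown to lack binding.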
